A study of Mus musculus with 6 samples.

Results

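The AP-1 transcription factors described here are 10 genes, Fos, Fosb, Fosl1, Fosl2, Jun, Junb, Jund, Batf, Batf3 and Atf3, named as a list and found by gene identifier among the 55487 genes of the count table. All 10 were present, and all 10 passed the filter on low counts that left 15774 genes for testing. RNA was sequenced from neutrophils that had been sorted as Ly6G-positive cells from digested mouse lungs. The 3 mutant libraries came from Mrp8-Cre;TGFbR2-fl/fl mice, which carry loxP-flanked Tgfbr2 and a transgene that drives Cre and EGFP from the S100A8 (Mrp8) promoter, a promoter active in neutrophils and other myeloid cells. The 3 wt libraries came from Cre-negative TGFbR2-fl/fl littermates, so both groups carry the floxed alleles on a mixed B6 and 129 background, and only mutants carry the transgene. Age, sex and treatment are not given in the labels, and the labels do not tie a library to a single mouse, so each p-value reflects only how far libraries spread.

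AP-1 is a dimer of proteins with a basic DNA-binding region and a leucine zipper. JUN proteins can pair with each other or with FOS, BATF and ATF proteins, whereas FOS proteins need a partner from another family, and the dimers bind the DNA sequence TGANTCA or the related cyclic AMP response element. Several of these genes, Fos and Jun among them, are immediate early genes. Such genes are transcribed within minutes of a stimulus from factors already in the cell, and their mRNAs are short-lived. In neutrophils AP-1 is known to act with NF-kB at cytokine genes, and SMAD proteins downstream of the TGF-beta receptor can bind DNA together with FOS and JUN. Fos and Jun transcripts are also known to rise when tissue is dissociated with enzymes. AP-1 here means these factors and not the clathrin adaptor of the same name.

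The sequences below show the start-site regions of the most abundant members, Fos and Junb, and of Jun, which differed from them across libraries. Each is the 250 bases before the RefSeq transcription start in GRCm38.p6, read 5′ to 3′ on the gene's strand, and capitals mark the motifs found on either strand. The motifs were the core of the cyclic AMP response element, TGACGT. A variant of that element, TGACATCA, was also sought. So were the TATA box, TATAAA, and the CCAAT box. The GC box was sought as GGGCGG.
Fos, chr12:85473640-85473889, plus strand: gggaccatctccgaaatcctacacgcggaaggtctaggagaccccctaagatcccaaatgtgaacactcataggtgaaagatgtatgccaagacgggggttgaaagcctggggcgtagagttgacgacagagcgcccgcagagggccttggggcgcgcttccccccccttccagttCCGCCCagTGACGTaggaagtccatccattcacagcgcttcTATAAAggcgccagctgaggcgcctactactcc
Junb, chr8:84978749-84978998, minus strand: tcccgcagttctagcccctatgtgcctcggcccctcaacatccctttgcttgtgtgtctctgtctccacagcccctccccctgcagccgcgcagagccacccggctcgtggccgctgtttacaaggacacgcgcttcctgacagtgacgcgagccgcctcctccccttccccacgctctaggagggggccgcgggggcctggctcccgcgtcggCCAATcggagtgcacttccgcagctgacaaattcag
Jun, chr4:95052223-95052472, minus strand: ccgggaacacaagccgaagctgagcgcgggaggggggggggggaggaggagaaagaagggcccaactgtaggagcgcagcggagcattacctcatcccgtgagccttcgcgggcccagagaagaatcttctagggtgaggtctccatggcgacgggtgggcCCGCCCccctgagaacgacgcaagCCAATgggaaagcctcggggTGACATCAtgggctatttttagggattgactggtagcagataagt

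RefSeq start-site sequences matched 9 of the 10 members, the exception being Fosl1. TGACGT was present before the start of 3 of these 9 members, Fos, Batf and Atf3, and in 6.47% of all 32851 start-site regions of the same length. TGACATCA was present before Jun alone among the 9, and in 2.93% of all regions. The GC box was present in 7 of the 9, the exceptions being Junb and Jund, and in 32.7% of all regions. TATAAA was found before Fos alone among the 9 (12.4% of all regions) and CCAAT before Jun and Junb (33.8%). TGANTCA itself matched in 0 of the 9 windows (6.75% of all), and the CArG box bound by serum response factor in 0 of the 9 (1.47% of all). Sequence farther upstream of the windows was not searched. The lack of a match therefore does not show that Fos, Junb or another member lacks such a site. The RefSeq start is not always that of the counted gene. It lies 1210 bases upstream of it for Jund, and 671, 567 and 34706 bases inside the counted gene for Fosl2, Batf3 and Atf3, so those windows do not describe the sequence before the counted start. These matches describe the letters in the windows and say nothing of whether a factor binds there.

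ATTTA is the core of the AU-rich elements through which ZFP36 (tristetraprolin) and related proteins shorten the life of an mRNA. In the 3′ untranslated region (UTR) of the principal GENCODE M21 transcript, 8 of the 10 members had at least 1 ATTTA, against 62.7% of 20731 protein-coding genes with such a region. The exceptions were Batf and Batf3. The 9-base element TTATTTATT was present in 2 members, Fos and Fosl2, against 7.12% of genes. Per kilobase of this region Fos had 4.91, Junb 4.12 and Jun 3.24 copies of ATTTA, against a median of 1.17 over all these genes. Atf3 had 2.53, Jund 1.88, Fosl2 1.72 and Fosl1 1.57 copies. Fosb, at 0.466, and Batf and Batf3, at 0, lay below the median. The 30-base windows with the most copies follow, with ATTTA in capitals, for Fos and Fosl2, which hold the 9-base element, for Jun and Junb, and for Fosl1, the member with the smallest p between groups.
Fos, chromosome 12: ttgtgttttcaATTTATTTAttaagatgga
Fosl2, chromosome 5: aattgacATTTAttttattATTTAttttaa
Jun, chromosome 4: atcATTTAtaatcataggaaagATTTAgta
Junb, chromosome 8: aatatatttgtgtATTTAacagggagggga
Fosl1, chromosome 19: aagggcagctgctATTTAttttcctaaaga

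Several members lie close together in GRCm38. On chromosome 12, Fos (85473890 to 85477273) and Batf (85686669 to 85709087) are 209 kb apart with Jdp2, which encodes another member of the family, between them. Batf3 (191097847 to 191108945) and Atf3 (191170296 to 191218039) are 61.4 kb apart on chromosome 1. Jun, Junb and Jund have a single exon in their principal transcripts, as do 7.11% of 21808 protein-coding genes. Of the 10 principal transcripts Jund has the highest GC content, 67.1%, above 99.7% of genes.

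Library totals were 30403494 to 35906780 counts. By these totals, without TMM scaling, 3 counts in a library equal 0.0835 to 0.0987 CPM, a floor that covers counting error only. The CPM levels given for genes are read counts scaled to a common library size by TMM. Tgfbr2, the targeted gene, stood at 176, 205 and 181 CPM in mutants, against 186, 185 and 201 CPM in wt (adjusted p = 0.996). This value pools all exons of the gene, including those outside the floxed part, so it does not check the genotype labels. All 12 neutrophil markers had counts and summed to 22428 to 28178 CPM in mutants, against 23186 to 24610 in wt. Of these 12, DESeq2 called S100a8 and Cxcr2 lower and Il1r2 higher in mutants, and 8 of the 12 had a negative log2 fold change. Over all tested genes DESeq2 called 0.983%, and 50.7% had a positive log2 fold change. In bulk RNA fewer cells of a type and less RNA per cell cannot be told apart. Markers of other lung cells were present too. The 10 alveolar macrophage markers summed to 632 to 1284 CPM in mutants, against 357 to 576 CPM in wt, the 10 fibroblast markers to 2658 to 3774 CPM in mutants, against 2279 to 2657 CPM in wt, and the 10 epithelial markers to 499 to 883 CPM in mutants, against 242 to 512 CPM in wt. Two-sided exact permutation tests gave p = 0.1, the smallest that 20 assignments allow, for the macrophage and fibroblast sums and p = 0.2 for the epithelial sum. Chil3 made up 64.0% of the macrophage sum and Gsn 78.8% of the fibroblast sum, and 0 markers of these 3 lists were at 0 in all libraries. The sums of the monocyte, endothelial, B cell, T cell, dendritic cell, and eosinophil and mast cell lists overlapped between groups, but Nr4a1, also an immediate early gene, made up 83.8% of the monocyte sum.

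Junb and Fos dominated the family. In CPM per kilobase of exon, which allows levels to be set side by side between genes, Junb was at 4018 ± 364 and Fos at 2482 ± 328 over the 6 libraries (SD, n = 6), ranks 5 and 10 among 15774 tested genes. Together they held 83.9% to 86.9% of the members' summed CPM, and the members as a whole took 1.53% to 1.99% of all counts. Atf3 came next at 259 ± 29.8 CPM per kilobase. The values of Junb lay above those of Fos in all 6 libraries, and those of Fos above those of Atf3, without overlap.

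Fosb with a mean of 110 (86.4 to 139), Fosl2 at 91.0 ± 4.83 and Jun at 88.2 ± 15.5 CPM per kilobase formed a middle group whose ranges over libraries overlapped (SD, n = 6), so their order is not resolved. Fosl2 exceeded Jun in 3 of 6 libraries. Batf followed at 32.6 ± 3.89, below every library of Jun. Fosl1 at 4.54 ± 1.52 and Jund at 4.53 ± 0.819 CPM per kilobase overlapped as well, with Fosl1 above Jund in 3 of 6 libraries, namely the 3 mutants. Batf3 was lowest at 0.390 ± 0.364, with counts of 6 to 52 per library.

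**Figure D1:**
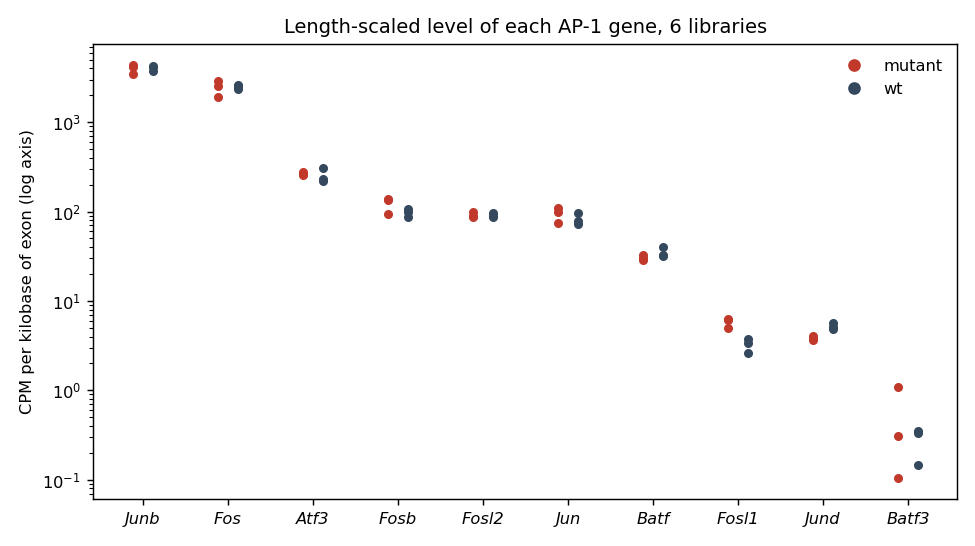
Level of each of the 10 genes in CPM per kilobase of exon (log axis), ordered by mean, with 1 point per library, mutants left and wt right of each gene. Junb (3436 to 4401) and Fos (1923 to 2925) stand above the other 8 genes, and Batf3 (median 0.320) lies below all.

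Jund is known as a JUN gene expressed steadily in many cell types, and its rank of 5131 stood far below that of Junb. Its count is uncertain, because 52.6% of its 1668 counted exon bases are shared with the antisense gene Gm11175, which was listed with 0 counts in all libraries. Fosl1 shares 57.2% of its 2033 exon bases with Ccdc85b on the opposite strand. The libraries do not mark strand, and the sources used here do not say how reads over both genes were counted. The levels per kilobase divide by the full exon length. If reads over shared bases were left out, the levels and ranks of Jund and Fosl1 would be too low. The overlaps of Junb with Prdx2 (7.52% of its exon bases) and of Jun with the antisense gene Junos (7.28%) are small, and both partners were far lower: Prdx2 averaged 23.4 CPM in mutants, against 21.1 in wt, and Junos 0.750 CPM in mutants, against 1.01 in wt.

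Between mutants and wt 0 of the 10 members passed an adjusted p of 0.05 by edgeR, where 0.00634% of the 15774 tested genes did so. DESeq2 called 0 members as well, against 0.983% of tested genes (0.514% higher, 0.469% lower). At an unadjusted p under 0.05 edgeR had 1 member, Fosl1, against 6.73% of tested genes (3.51% higher and 3.22% lower in mutants). The 3 mutant and the 3 wt libraries did not overlap for 2 members, Fosl1 (higher) and Jund (lower), against 13% of tested genes (6.82% higher, 6.21% lower). The median log2 fold change over the members was 0.04, with 6 positive and 4 negative, and 0.01 over all tested genes with 50.7% positive.

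**Figure D2:**
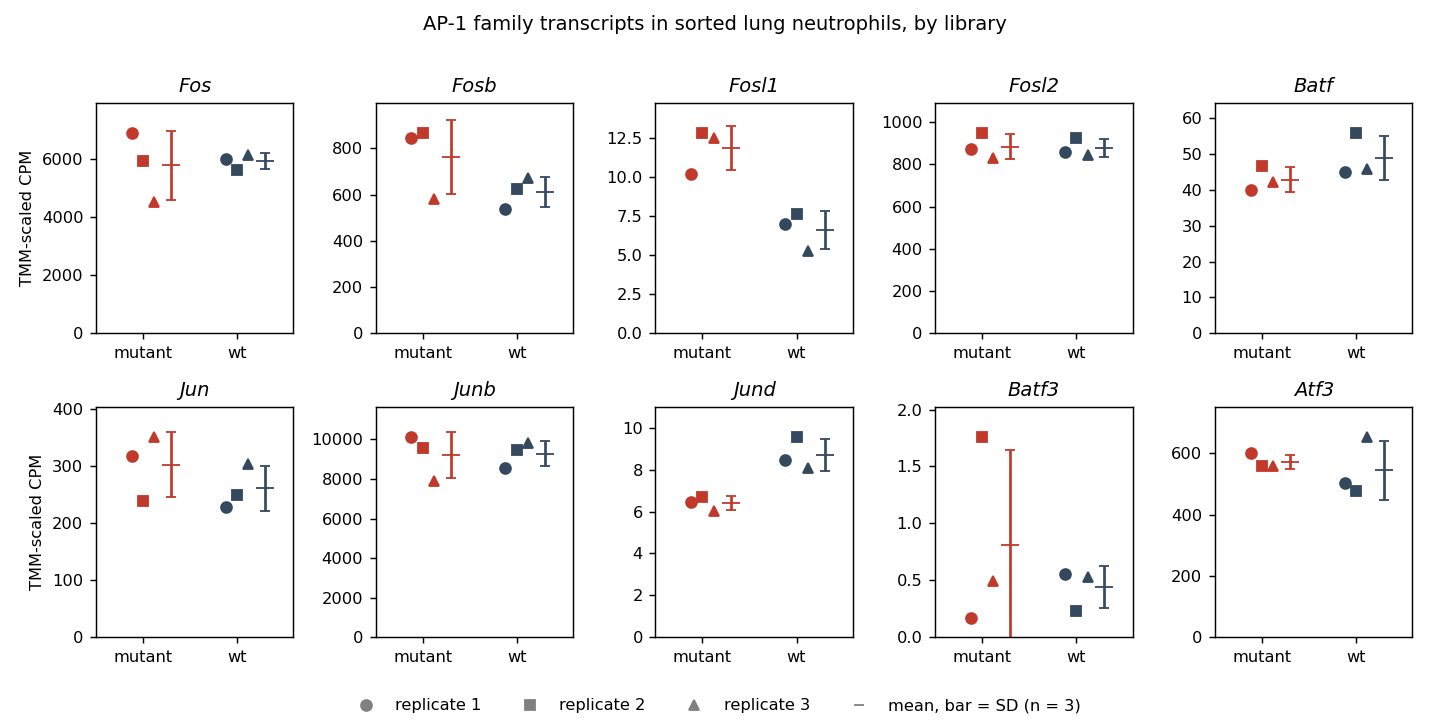
TMM-scaled CPM of each gene in every library (points, 1 shape per replicate number) with the group mean and SD (n = 3), mutants left of wt; the SD bar of Batf3 in mutants is cut at 0. For Fosl1 (10.2 to 12.8 CPM in mutants, 5.28 to 7.59 in wt) and Jund (6.05 to 6.70 in mutants, 8.09 to 9.57 in wt) the groups do not overlap, while Fos and Junb overlap widely.

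Among the FOS genes, Fos encodes the prototype FOS protein with a strong activation domain. Its values were 6879, 5922 and 4523 CPM in mutants, against 5975, 5595 and 6135 CPM in wt. Mutant replicate 1 was the highest and mutant replicate 3 the lowest of the 6 libraries, so the wt range lay inside that of mutants. The log2 fold change was -0.03 ± 0.13 (SE), its 95% interval ran from -0.32 to 0.26, or 0.801-fold to 1.20-fold, and the adjusted p by edgeR was 0.996. Its sign turned without mutant replicate 3 (0.12).

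Fosb encodes a FOS protein whose splice variant lacks part of the activation domain. It was at 844, 867 and 580 CPM in mutants, against 539, 624 and 671 CPM in wt. Mutant replicates 1 and 2 lay above all wt libraries, and mutant replicate 3 lay among them. The log2 fold change was 0.32 ± 0.15, its interval ran from -0.02 to 0.66, and edgeR gave an unadjusted p of 0.0607 (adjusted p = 0.765). Without mutant replicate 3 the log2 fold change was 0.48 (unadjusted p = 0.00246, adjusted p = 0.643). Across 13 alternatives it stayed positive, between 0.22 and 0.48, and the smallest adjusted p was 0.403.

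Fosl1 encodes FRA-1, a FOS protein that lacks a strong activation domain and is known to be induced by AP-1 itself. It was at 10.2, 12.8 and 12.5 CPM in mutants, against 6.96, 7.59 and 5.28 CPM in wt, from 370, 377 and 408 reads in mutants, against 212, 230 and 169 in wt. Every mutant library lay above every wt library. The mutant mean was 1.79-fold the wt mean, and the log2 fold change was 0.84 ± 0.25 with an interval of 0.29 to 1.39, an unadjusted p of 0.00641 and an adjusted p of 0.464 by edgeR. In 12 of 12 alternatives the unadjusted p was under 0.05 and the log2 fold change was between 0.7 and 0.95, while the smallest adjusted p was 0.142, from DESeq2. The alternatives refit the same libraries, and non-overlapping groups all but fix the sign. Ccdc85b, with which Fosl1 shares exon bases, averaged 15.4 ± 3.56 CPM in mutants, against 16.1 ± 3.29 CPM in wt (SD, n = 3 each) and overlapped between groups. The sums of macrophage and fibroblast markers given above did not overlap between groups either and were higher in mutants. For the fibroblast sum the lowest mutant library (2658 CPM) barely exceeded the highest wt library (2657 CPM). Gsn, which made up 78.8% of that sum, overlapped between groups. The log2 fold change was positive for 10 of 10 macrophage and 9 of 10 fibroblast markers, against 50.7% of all tested genes. The part of these markers in the difference of Fosl1 was not tested.

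Fosl2, which encodes FRA-2, was at 871, 949 and 831 CPM in mutants, against 861, 927 and 846 CPM in wt. It varied least of the members, by 1.14-fold between its highest and lowest library, with a log2 fold change of 0.01 ± 0.09 and an interval of -0.19 to 0.21. Its sign turned without mutant replicate 2 (-0.05), wt replicate 1 (-0.00) or wt replicate 3 (-0.02).

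Among the JUN genes, Junb encodes a JUN protein that activates weakly and can oppose JUN, and it is known as a TGF-beta-induced gene in several cell types. It was at 10127, 9575 and 7906 CPM in mutants, against 8575, 9451 and 9832 CPM in wt. The groups overlapped, and mutants again held both the highest and the lowest library. The log2 fold change was -0.01 ± 0.10, with an interval of -0.23 to 0.20, and its sign turned when mutant replicate 3 (0.09), wt replicate 2 (0.00) or wt replicate 3 (0.03) was left out.

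Jun encodes the main target of the JNK kinases and can induce its own gene. It was at 317, 239 and 351 CPM in mutants, against 229, 249 and 304 CPM in wt. Mutant replicate 2 lay among the wt libraries and the other mutants lay above all of them. The log2 fold change was 0.21 ± 0.16 (interval -0.13 to 0.56, adjusted p = 0.897 by edgeR). It ran from 0.09 without mutant replicate 3 to 0.35 without mutant replicate 2, where the unadjusted p was 0.0289. Jund was at 6.46, 6.70 and 6.05 CPM in mutants, against 8.47, 9.57 and 8.09 CPM in wt, with every mutant library below every wt library. The log2 fold change of Jund was -0.44 ± 0.24 (interval -0.97 to 0.09, adjusted p = 0.808 by edgeR). It was negative in 12 of 12 alternatives, but these refit the same libraries, and non-overlapping groups all but fix the sign.

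**Figure D3:**
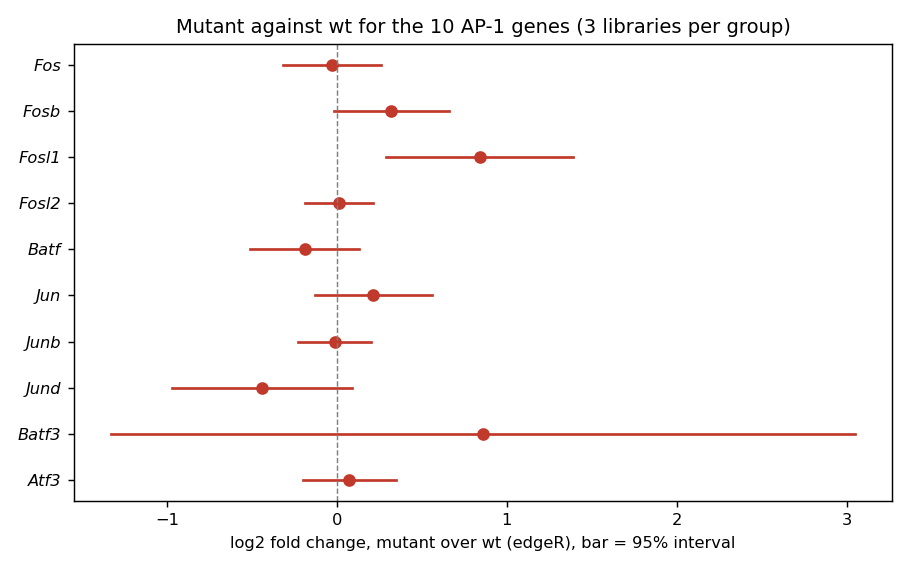
Log2 fold change of mutants over wt by edgeR for each gene (points) with its 95% interval (bars), 3 libraries per group. The interval of Fosl1 (0.29 to 1.39) is the only one of the 10 that lies clear of 0 before adjustment, and that of Batf3 (-1.33 to 3.05) is the widest.

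Batf and Batf3 encode small proteins that consist of little more than the basic region and zipper and that pair with JUN proteins and with interferon regulatory factors. Batf was at 39.9, 46.6 and 42.2 CPM in mutants, against 45.0, 55.9 and 45.8 CPM in wt, with a log2 fold change of -0.19 ± 0.14 (interval -0.51 to 0.13). The groups overlapped through mutant replicate 2. Batf3, known in mice for its need in the development of a dendritic cell subset, was at 0.166, 1.76 and 0.492 CPM in mutants, against 0.558, 0.231 and 0.531 CPM in wt. Mutant replicate 2 held 52 of its reads, against 6 to 17 in the other 5 libraries, and without that library the log2 fold change was -0.42 in place of 0.86.

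Atf3 encodes a stress-induced factor that restrains inflammatory genes in mouse macrophages. It was at 600, 560 and 558 CPM in mutants, against 502, 478 and 654 CPM in wt. The 3 mutants lay close together inside the range of wt. The log2 fold change was 0.07 ± 0.12 (interval -0.20 to 0.35, adjusted p = 0.982 by edgeR), and its sign turned without wt replicate 2 (-0.01).

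The members did not vary together across libraries. Mutant replicate 3 had the lowest value of the 6 libraries for 4 members, Fos, Fosl2, Junb and Jund, and the highest for Jun. On the log2 scale, relative to each gene's mean over the 6 libraries, that library was at -0.36 for Fos and -0.22 for Junb but at 0.34 for Jun. The ratio of Fos to Jun in CPM was therefore 21.7, 24.8 and 12.9 in mutants and 26.0, 22.5 and 20.2 in wt, lowest in mutant replicate 3. Per kilobase, the summed JUN genes were 1.43, 1.54 and 1.68 times the summed FOS genes in mutants and 1.40, 1.63 and 1.56 times in wt, so the groups overlapped.

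Heat shock genes are known to respond to tissue handling, and their values are given for the same libraries. Hspa1a, an inducible chaperone gene, was at 95.4, 86.9 and 187 CPM in mutants, against 82.0, 91.3 and 88.0 CPM in wt. Hspa1b was at 6.88, 6.30 and 14.5 CPM in mutants, against 6.20, 7.89 and 8.90 CPM in wt. Mutant replicate 3 was thus the highest library for both, as it was for the macrophage marker sum (1284 CPM), the epithelial sum (883 CPM) and the fibroblast sum (3774 CPM), and the part of these in its low Fos and Junb was not tested. The list was not uniform: mutant replicate 3 was highest for 8 of the 15 heat shock genes, mutant replicate 1 and wt replicate 3 for 3 each and wt replicate 1 for 1. Hsph1 was at 8.34, 9.38 and 19.2 CPM in mutants, against 19.5, 10.9 and 9.18 CPM in wt, and it was named after its values were seen. Of 15 heat shock genes 11 had a positive log2 fold change, against 50.7% of all tested genes, 0 passed by edgeR, and 2 were higher and 0 lower at the unadjusted 0.05 level, or 13.3% against 6.73% of tested genes. The co-chaperone gene Dnajb1 was at 186 ± 7.59 CPM in mutants, against 164 ± 26.2 CPM in wt (SD, n = 3 each, adjusted p = 0.89 by edgeR).

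**Figure D4:**
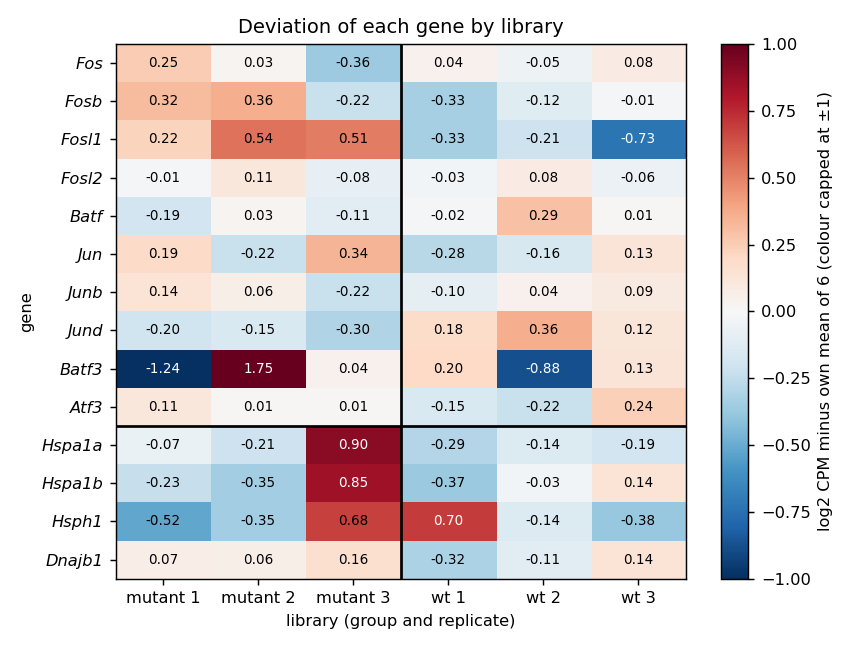
Deviation of each gene from its own mean over the 6 libraries, in log2 CPM, for the 10 genes and for the heat shock genes Hspa1a, Hspa1b, Hsph1 and Dnajb1, with mutants left of wt. Mutant replicate 3 is low for Fos (-0.36) and Junb (-0.22) and high for Jun (0.34), Hspa1a (0.90) and Hspa1b (0.85), while Hsph1 is high in wt replicate 1 (0.70) as well as in mutant replicate 3 (0.68).

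The genes whose course over the 6 libraries was most like that of Fos were Tuba4a, Sun1 and Siglecg. Likeness was measured as the root mean square difference of centred log2 CPM, which was 0.05, 0.06 and 0.06 for them, against a median of 0.26 over 6679 tested genes that averaged 10 CPM or more and whose symbols do not start with Gm or end with Rik. Tuba4a, a tubulin gene, was at 158, 132 and 109 CPM in mutants, against 132, 120 and 136 CPM in wt. For Fosl1 the 3 most alike were Usp37, Stoml1 and Il1a, at 0.08, 0.11 and 0.13, against a median of 0.51. Genes picked as nearest to Fosl1 share its higher mutant values by that choice. Il1a, which encodes interleukin 1 alpha, was at 78.2, 104 and 95.1 CPM in mutants, against 44.4, 63.3 and 42.2 CPM in wt.

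Genes around the members were taken from lists chosen for their roles, with earlier results of these data known. The shares given for the lists are therefore descriptive and no evidence of an excess. Of 27 other genes of the same protein class (ATF, CREB, MAF, CEBP and related factors), 0 passed by edgeR or DESeq2 over all genes, and 4 were higher and 2 lower at the unadjusted 0.05 level, or 22.2% against 6.73% of all tested genes. The 4 higher were Atf4, a mediator of the stress response to misfolded protein and amino acid lack, its target Ddit3, Crem and Maff. Atf4 was at 121 ± 3.66 CPM in mutants, against 95.3 ± 4.36 CPM in wt, and Maff at 15.2 ± 1.55 CPM in mutants, against 10.1 ± 1.39 CPM in wt (SD, n = 3 each). Their log2 fold changes were 0.34 ± 0.10 (adjusted p = 0.498) and 0.59 ± 0.21 (adjusted p = 0.593) by edgeR, and the groups did not overlap for either. The 2 lower were Bach1, a repressor of antioxidant genes, at 16.2 ± 0.882 CPM in mutants, against 23.6 ± 1.14 CPM in wt, and Cebpd. Jdp2, a repressor that pairs with JUN, was at 10.5 ± 2.29 CPM in mutants, against 9.14 ± 0.668 CPM in wt and overlapped. Crem, Ddit3, Bach1 and Cebpd were chosen after their values were seen.

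Upstream of the family, MAP kinases activate the factors and their promoters. Of 24 tested JNK, p38 and ERK pathway genes 0 passed by edgeR, and 1 was higher and 0 lower at the unadjusted 0.05 level, a share of 4.17% that lies below the 6.73% of all tested genes. This gene was Mapkapk2, the p38-activated kinase that acts on ZFP36. Mapkapk2 was at 165 ± 22.1 CPM in mutants, against 116 ± 9.63 CPM in wt (log2 fold change 0.51 ± 0.13, adjusted p = 0.345 by edgeR). DESeq2 called Mapkapk2 alone of the 24 genes, a share of 4.17% that lies above the 0.983% of all tested genes (0.514% higher). It was named after its value was seen. Mapk8 (JNK1) was at 13.3 ± 4.17 CPM in mutants, against 11.8 ± 1.94 CPM in wt, Mapk14 (p38 alpha) at 259 ± 25.9 CPM in mutants, against 278 ± 17.5 CPM in wt, and Map3k8 (TPL2, upstream of ERK) at 61.6 ± 5.08 CPM in mutants, against 65.3 ± 7.70 CPM in wt, all overlapping between groups. Of the 6 genes for serum response factor and its partners, which drive Fos and Junb, 0 passed by edgeR. At the unadjusted 0.05 level in edgeR 0 were higher and 1 was lower, or 16.7% against 6.73% of tested genes (3.22% lower). DESeq2 called the same gene lower, against 0.983% of tested genes called (0.469% lower). That gene was Mrtfa, a coactivator held back by actin, at 88.6, 87.0 and 81.2 CPM in mutants, against 126, 116 and 132 CPM in wt (adjusted p = 0.276 by edgeR). Srf was at 13.8 ± 2.11 CPM in mutants, against 11.1 ± 3.82 CPM in wt and Elk4 at 46.7 ± 5.67 CPM in mutants, against 47.4 ± 1.07 CPM in wt.

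Other immediate early genes differed in both directions. Of these 25 genes 0 passed by edgeR, 4 were higher and 1 was lower by DESeq2, and 7 were higher and 2 lower at the unadjusted 0.05 level in edgeR, a share of 36% against 6.73% of tested genes. Their median log2 fold change was 0.00, and DESeq2 called 0.983% of all tested genes. The 7 higher were Egr1, Egr2 and Egr3, zinc finger factors induced through serum response factor, the nuclear receptor genes Nr4a1, Nr4a2 and Nr4a3, and Gadd45b. Egr1 was at 858, 913 and 807 CPM in mutants, against 391, 515 and 571 CPM in wt, with every mutant library above every wt library. Its log2 fold change was 0.80 ± 0.13, with an adjusted p of 0.242 by edgeR and 1.7e-05 by DESeq2. Nr4a1, at 5755 ± 287 CPM in mutants, against 4654 ± 920 CPM in wt, overlapped. The 2 lower were Klf2, a factor linked to cell quiescence, at 66.8 ± 11.6 CPM in mutants, against 116 ± 14.9 CPM in wt, and Ier2. Apart from Ier2 these genes were named after their values were seen. Ier2 was at 1071, 981 and 961 CPM in mutants, against 1245, 1152 and 1250 CPM in wt, without overlap (log2 fold change -0.27 ± 0.09, adjusted p = 0.498 by edgeR). Zfp36, whose protein binds the ATTTA elements shown above, was at 2485, 2146 and 1747 CPM in mutants, against 2713, 2340 and 2534 CPM in wt. Dusp1, a phosphatase that ends p38 and JNK signalling, was at 19764, 17187 and 15493 CPM in mutants, against 20541, 17793 and 19634 CPM in wt. For Zfp36 and Dusp1 the groups overlapped and mutant replicate 3 was the lowest library, as for Fos and Junb.

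Of 26 tested AP-1 target genes 0 passed by edgeR, 2 were higher and 1 was lower by DESeq2, and 5 were higher and 2 lower at the unadjusted 0.05 level in edgeR, a share of 26.9% against 6.73% of all tested genes. DESeq2 called 0.983% of all tested genes. The median log2 fold change was 0.10 in the list and 0.01 over all tested genes. These genes have other regulators as well, and whether AP-1 drives them in these cells was not tested. The DESeq2 calls were Spp1 (osteopontin) and Thbs1 (thrombospondin 1), both higher, and Vim (vimentin), lower, all named after their values were seen. Thbs1 was at 4304, 4237 and 4271 CPM in mutants, against 3124, 3222 and 3341 CPM in wt, without overlap (log2 fold change 0.40 ± 0.07, adjusted p = 0.242 by edgeR). Spp1, which macrophages also make, was at 106, 72.5 and 119 CPM in mutants, against 42.4, 52.9 and 41.9 CPM in wt. The part of the macrophage markers, whose sum was also higher in every mutant library, in these differences was not tested. Mmp9, the gelatinase of neutrophil granules, was at 4959 ± 1989 CPM in mutants, against 4421 ± 222 CPM in wt (SD, n = 3 each), with mutant replicate 2 at 7255 CPM and the other 2 mutants below all wt libraries. Plaur, the urokinase receptor gene, was at 3070 ± 202 CPM in mutants, against 3011 ± 324 CPM in wt and Cd44, a hyaluronan receptor gene, at 2105 ± 129 CPM in mutants, against 2127 ± 104 CPM in wt. The cytokine gene Il1b was at 14130, 14653 and 10836 CPM in mutants, against 13539, 13639 and 14032 CPM in wt, again lowest in mutant replicate 3.

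**Figure D5:**
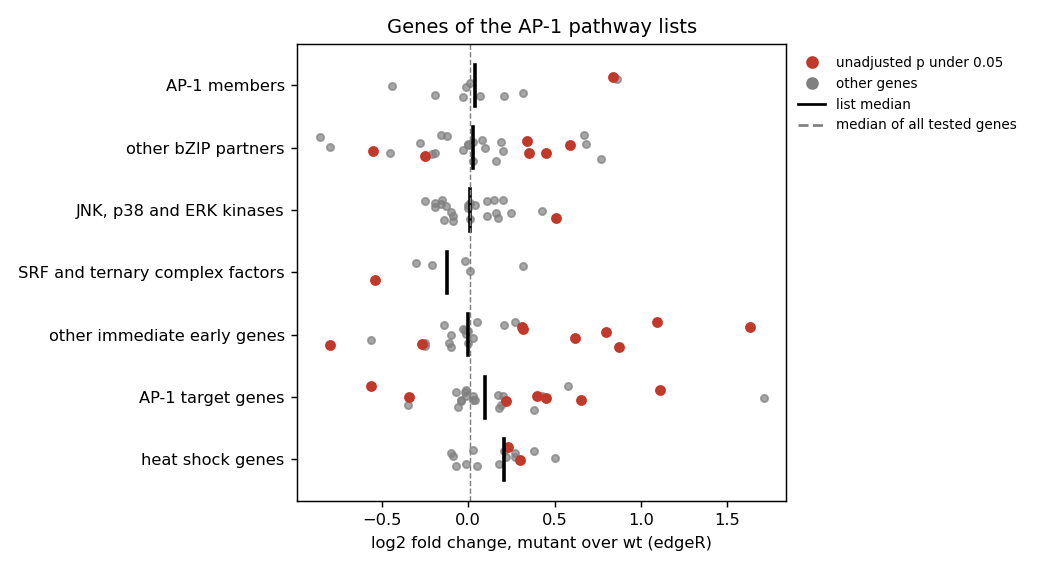
Log2 fold change of mutants over wt by edgeR for each tested gene (points) of the lists named on the axis, with the list median (black bar), the median of all tested genes (dashed line) and genes at an unadjusted p under 0.05 in red. The AP-1 genes have a median of 0.04 and 1 red gene, Fosl1, and the other immediate early genes have 9 red genes on both sides of 0.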

How the data were processed

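Neutrophils were sorted from lungs for 3 mutant and 3 wt samples, and per the labels' protocols cDNA was made by a SMART-Seq v2 protocol, which does not mark strand, with Nextera XT libraries. The authors deposited raw read counts per gene, made with STAR and featureCounts on GRCm38 per the submitters' processing notes; their versions, the annotation and the strand option are not given in the sources used. Gene lengths are the merged exon lengths per the file headers. Identifiers were matched to GENCODE M21 symbols (55094 exactly, 300 without version, 93 unmatched). Genes were kept by filterByExpr (minimum count 10), scaled by TMM and compared in R 4.3.3 with edgeR 4.0.16, using its quasi-likelihood test, and p-values were adjusted by Benjamini and Hochberg over all 15774 tested genes; the standard error is the log2 fold change over the root of F. Alternatives were DESeq2 1.42.0 (size factors and Wald test), library totals, limma-voom (limma 3.58.1), other count filters, edgeR's robust option, leaving out each library and other lengths. Replicate numbers follow accession order. The members, lists and named genes were chosen with earlier results of these data known. Named genes are the members, Tgfbr2, role genes of each list and the 3 genes most like Fos and Fosl1; genes outside that rule, Ccdc85b, Prdx2, Junos and Gm11175 among them, were chosen after their values were seen. Start-site sequences are from RefSeq (GRCm38.p6).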

Additional observations from a re-analysis of the deposited data

How the results depend on the processing

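The count of members past the adjusted threshold was 0 under every alternative run. At an unadjusted p under 0.05 it was 2 in place of 1, Fosl1 and Fosb, with library totals alone, with DESeq2's Wald test, with no filter on low counts and without mutant replicate 3, and 1 to 2 over the left-out libraries; without mutant replicate 2 the pair was Fosl1 and Jun. Under a 10 CPM filter on the mean, where Fosl1 is not tested, the single member was Fosb. Members with non-overlapping groups numbered 0 under that filter, which leaves out Fosl1 and Jund, and 2 to 4 over the left-out libraries. For the alternatives the shares of all tested genes at the unadjusted level and for non-overlap were not computed. Non-overlap is more frequent by design when a library is left out. Over all genes the call count of 1 became 155 with DESeq2, 70 with no filter, 18 under the 10 CPM filter and 0 to 2 over the left-out libraries. List calls, 0 in edgeR, became 1 kinase gene, 1 serum response factor gene, 5 immediate early genes and 3 target genes with DESeq2, 4 immediate early and 2 target genes with no filter, and 3 and 1 under the 10 CPM filter. Signs turned: Junb to 0.01 under the 10 CPM filter, and over the left-out libraries Junb -0.08 to 0.09, Fos -0.17 to 0.12, Fosl2 -0.05 to 0.05, Atf3 -0.01 to 0.22, Tgfbr2 -0.10 to 0.02, and Batf3, at 0.86 with all libraries, -0.42 to 1.35, the lowest without mutant replicate 2. Log2 ratios of the neutrophil and the eosinophil and mast cell marker sums ran from -0.08 to 0.10 and from -0.02 to 0.09. The cause was not tested. Without division by length 2 places in the order of levels changed, Atf3 and Fosl2, and with principal transcript length, an alternative added after seeing the data, 0 did. No paired analysis was possible because the labels give no replicate numbers. Depth limits Batf3, at 6 to 52 reads, and PCR copies are not independent molecules.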
